A study of Mus musculus with 9 samples.

Results

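The natriuretic peptide system of the mouse heart was followed here through 6 genes, taken by symbol from 53465 gene identifiers in the count files. They are the peptide genes Nppa and Nppb, the convertase gene Corin and the receptor genes Npr1, Npr2 and Npr3, and all 6 passed the filter on low counts that left 13825 genes for testing. Atrial and B-type natriuretic peptide, encoded by Nppa and Nppb, are hormones that heart muscle releases when it is stretched, and their transcripts are widely used as signs of ventricular load. Corin, a membrane serine protease of cardiomyocytes, cuts the Nppa precursor into the active hormone. Both hormones act through Npr1, a receptor with a guanylyl cyclase domain that makes cyclic GMP, Npr2 is the matching receptor for C-type peptide, and Npr3, which lacks the cyclase, removes the peptides from the circulation.

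RNA was sequenced from the infarct border zone of NOD-SCID hearts, an immunodeficient mouse strain, with 3 libraries per group. The sham group had surgery without ligation, the ligation group had a coronary artery tied, and the cell group had the same ligation together with implanted FOXO3-GE-MPCs. The labels give only this name for the cells, which in the study's usage are human mesenchymal progenitor cells whose FOXO3 gene was edited. Time after surgery, sex and age are not given in the sources used here, and the labels name no injection for the ligation group, although its deposited files carry the word vehicle. For replicates 2 and 3 of the cell group, 1 label field gives a different FOXO number, and the FOXO3 of their titles and treatment fields was followed. Nothing says that the libraries of a group came from separate animals, so p-values rest on the spread between these libraries, which may be technical. The edgeR fit also draws each gene's spread towards that of other genes. The file headers of sham replicates 1 and 2 share a name stem, as do those of ligation replicates 2 and 3, and summing each of these pairs changed no call on the 6 genes.

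Libraries held between 4549268 and 7515052 gene counts, the lowest in ligation replicate 1. Mitochondrially encoded genes took 19.1% to 19.9% of them in sham, 12.5% to 13.9% after ligation and 14.3% in each cell library, and leaving these genes out changed no call on the 6 genes. Heart muscle was the dominant source of the markers checked: the 10 cardiomyocyte markers summed to between 44245 and 55442 CPM (counts scaled to a common library size with TMM factors) in the 9 libraries, and none of them was at 0. The sums differed between groups, from 54009 to 55442 CPM in sham, 44301 to 46626 after ligation and 44245 to 45428 with cells. After ligation 6 of the 10 markers were lower and 2 higher (4 higher, with Ttn turning sign, under library totals). Of all genes tested, 38.2% were called in either direction there. Heart muscle makes Nppa, Nppb and Corin, and the part of this shift in their levels was not tested. The samples are bulk tissue, so fewer cells of a type and less RNA per cell cannot be told apart. The ligation libraries enter 2 of the 3 comparisons and the sham libraries enter 2 as well, so the comparisons are not independent of one another.

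Both peptide transcripts were higher after ligation than in sham hearts. With TMM scaling and the filter on low counts, only for Nppb was a further difference detected in hearts that received cells. Other settings also called Nppa (no filter) or Corin (library totals) there. The protease and the 3 receptor transcripts had log2 fold changes between -0.15 and 0.10 after ligation, none of them past the threshold. In edgeR's quasi-likelihood fit at an adjusted p under 0.05, 2 of the 6 genes were called between ligation and sham, beside 38.2% of all genes tested. Between the cell group and ligation 1 of 6 was called, beside 9.87% of all genes. Between the cell group and sham 3 of 6 were called, beside 40.9%. With 6 genes these counts are near the background and are no result about the set.

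**Figure D1:**
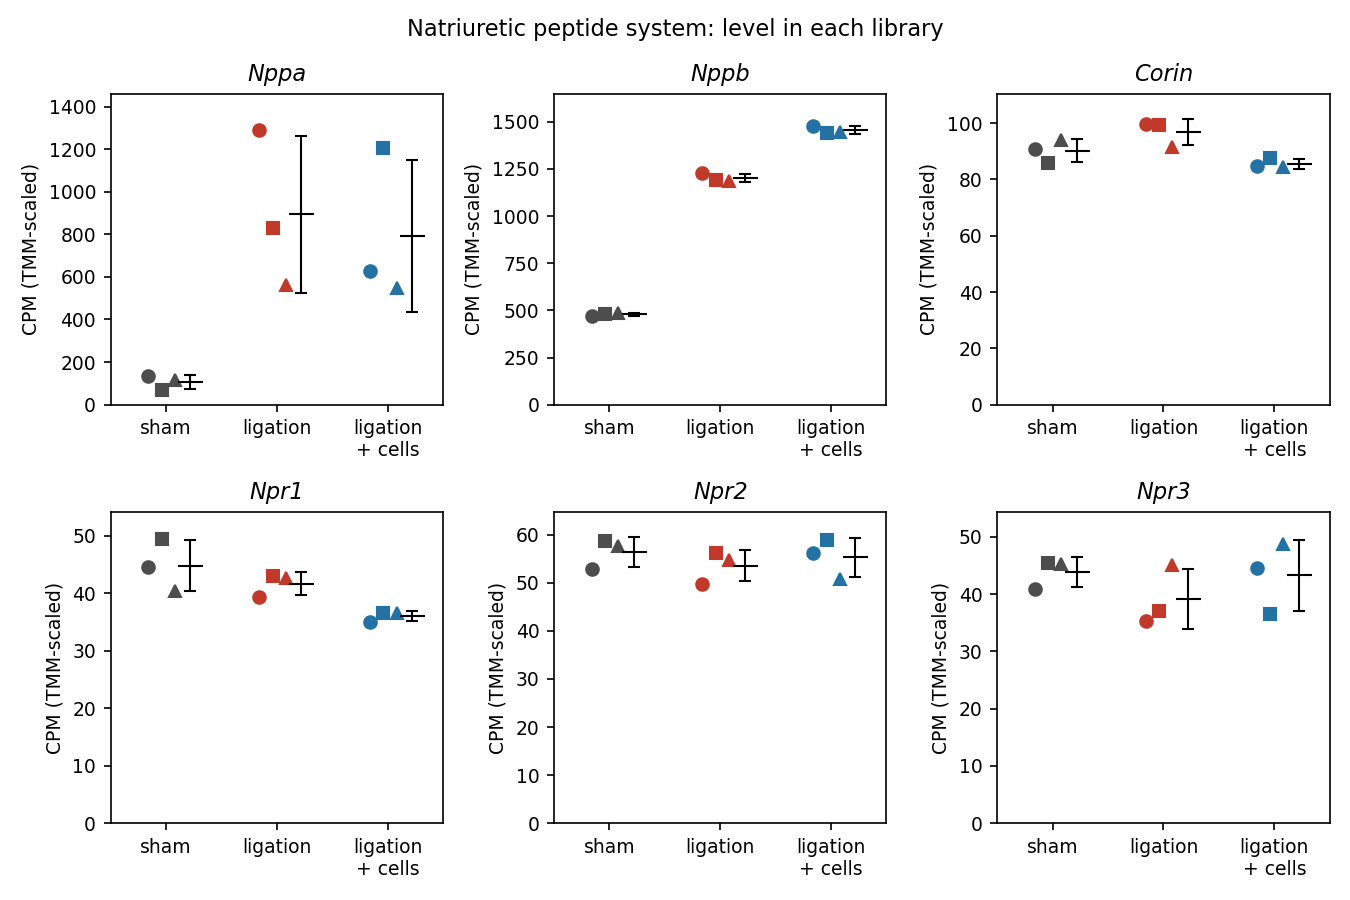
Level of each gene in CPM (TMM-scaled, linear axis from 0) in 3 libraries per group. Circles, squares and triangles are replicates 1, 2 and 3, and the bar beside them is the mean with its SD. Nppb lies in 3 tight, separate groups, Nppa is high but widely spread in both ligated groups, and the other 4 genes move little.

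Nppb, the B-type peptide gene, was read at 471, 479.9 and 487 CPM in sham replicates 1, 2 and 3. After ligation the same gene was at 1229, 1192 and 1186 CPM, and with cells at 1478, 1438 and 1448 CPM. The 3 groups did not overlap, as was the case for 47.6% of all genes between ligation and sham, 27.2% between cells and ligation and 49.8% between cells and sham, and the highest library of a group was at most 1.04 times its lowest. The ligation level was 2.51-fold the sham level (log2 fold change 1.33, SE 0.04, edgeR adjusted p = 2.05e-16). That difference was larger in size than those of 95.7% of the genes tested. The cell group was 1.21-fold above ligation (log2 fold change 0.28, 95% interval 0.20 to 0.35, edgeR adjusted p = 2.52e-05) and 3.03-fold above sham (edgeR adjusted p = 8.75e-18).

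Nppa, the atrial peptide gene, was read at 136, 68.9 and 116 CPM in the 3 sham libraries. After ligation it was at 1292, 829 and 564 CPM, and with cells at 626, 1204 and 548 CPM. Every ligated library was above every sham library, while the ligation and cell groups covered almost the same range. The ligation level was 8.37-fold the sham level (log2 fold change 3.06, SE 0.28, edgeR adjusted p = 2.95e-08), a difference larger in size than those of 99.3% of genes. The cell group was 7.43-fold above sham (log2 fold change 2.89, edgeR adjusted p = 5.95e-08). Between the cell and ligation groups the log2 fold change was -0.17 (edgeR adjusted p = 0.751), with a 95% interval from -0.70 to 0.36 that holds sizeable shifts in either direction. Leaving out 1 library at a time moved that value between -0.60, without cell replicate 2, and 0.19, without ligation replicate 1, and it was 0.04 without cell replicate 3.

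**Figure D2:**
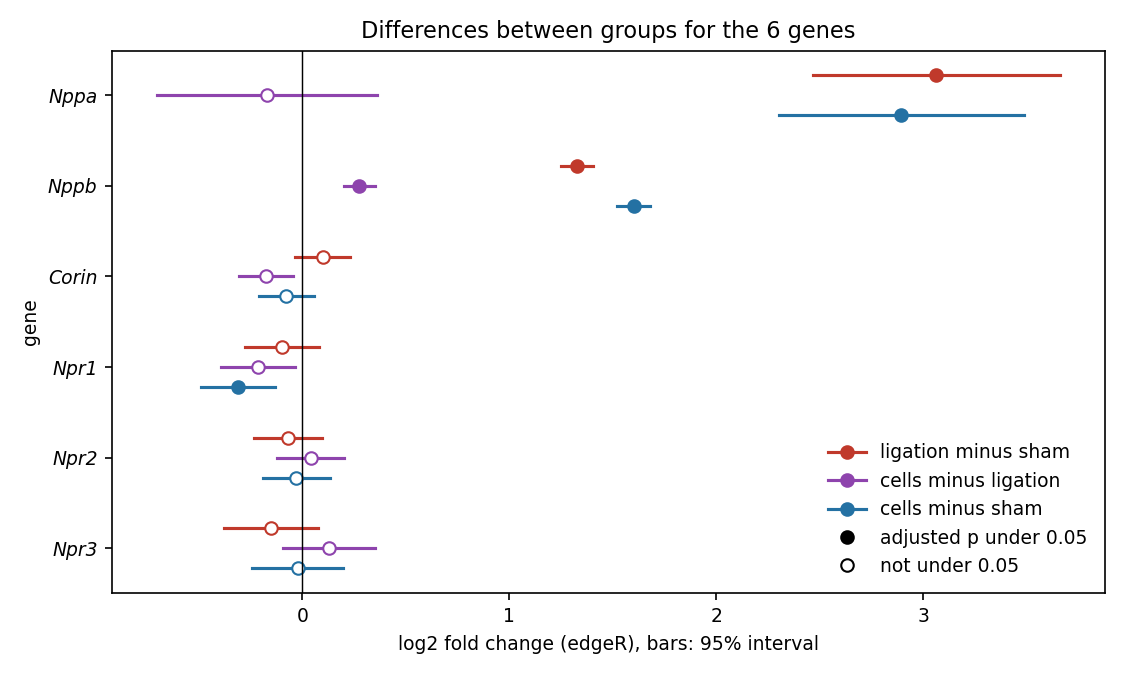
Log2 fold changes of the 6 genes in the 3 comparisons (points) with 95% intervals from edgeR, filled where the adjusted p was under 0.05. Nppa and Nppb lie far to the right in both comparisons with sham, and the interval of Nppa between cells and ligation is several times wider than that of Nppb.

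The peptide genes also differed in how well their libraries agreed. The within-group SD of log2 CPM, pooled over the groups, was 0.57 for Nppa, larger than those of 97.9% of genes tested, and 0.02 for Nppb, larger than those of only 0.260%, against a median of 0.15 over all genes. These ranks are over all genes tested without matching on level, and counting error is smaller for a gene of high counts such as Nppb. The spread of Nppa was larger than counting error. Its coefficient of variation was 41.2% in the ligation group, while the counts behind it, 4508 to 6063 per library, allow for 1.37%. For Nppb in the same group the observed value was 1.91% and the counting value 1.15%. In sham, Nppa varied by 32.2% against 4.11% from counting, and Nppb by 1.69% against 1.87%.

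A measurement that moved with the spread of Nppa was the level of short transcripts as a class. Over 167 genes with a mean of at least 50 CPM whose median coding transcript is at most 600 bases long, the median deviation from the group mean was highest in sham replicate 1, ligation replicate 1 and cell replicate 2. Those are the libraries in which Nppa was highest in its group. In the ligation group the deviations of the short transcripts were 0.05, 0.005 and -0.05 on the log2 scale, and those of Nppa were 0.61, -0.03 and -0.58. In the cell group they were -0.03, 0.05 and -0.03 for the short transcripts and -0.25, 0.69 and -0.44 for Nppa. Nppb, of nearly the same exon length as Nppa, deviated by at most 0.03 in these 6 libraries. With the short-transcript deviation as a covariate, a fit added after the spread was seen, the SE of Nppa's difference between ligation and sham was 0.08 and its log2 fold change 2.98 (edgeR adjusted p = 2.57e-19). In that fit the difference between cells and ligation was -0.16, with an interval from -0.31 to -0.02 (edgeR adjusted p = 0.149), so no call changed. The covariate was chosen with Nppa's deviations in these same libraries in view, so the smaller SE and p carry no independent weight. What makes the libraries differ in short transcripts was not tested.

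**Figure D3:**
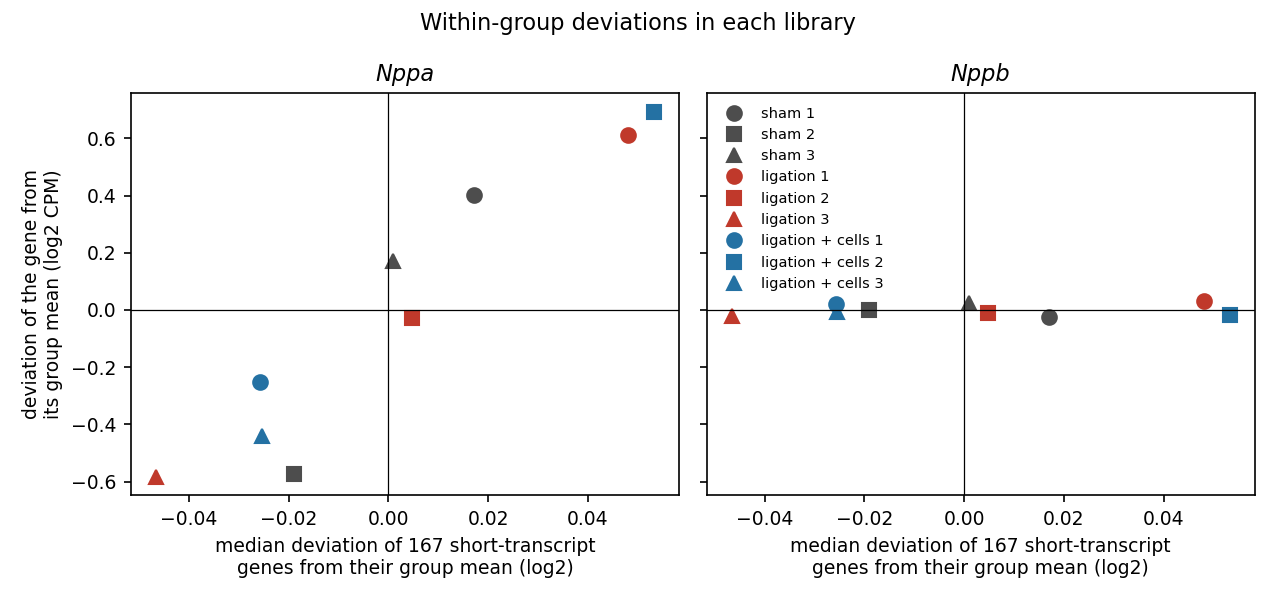
Deviation of Nppa (left) and Nppb (right) from their group means in log2 CPM, against the median deviation of 167 short-transcript genes in the same library. Colours are groups and shapes are replicates. Nppa spans -0.58 to 0.69 and is high where the short transcripts are high, and Nppb stays near 0 in all 9 libraries.

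The peptide genes lie next to each other on mouse chromosome 4, on the same strand, 13516 bases apart (GENCODE vM21, GRCm38). Nppb covers 147985788 to 147987205 and Nppa 148000722 to 148002079, with 3 exon blocks each. No other annotated exon overlaps those of Nppb. Of the 865 exon bases of Nppa, 532 (61.5%) are also covered by exons of Gm13054, an antisense gene on the opposite strand. The strand setting of the counting is not given in the sources used here. Counting without strand would set reads in shared bases aside as ambiguous, and ambiguous reads were 8.09% to 8.72% of each library's reads in the files. Gm13054 itself had between 2 and 22 counts in the 9 libraries. How many reads of Nppa were set aside, and whether equally in each group, was not tested.

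For comparing levels between genes, CPM were divided by exon length in kilobases. In sham, Nppb was at 614 ± 10.4 CPM per kilobase (SD, n = 3) and Nppa at 123 ± 39.8. Divided by only its 333 unshared bases, Nppa came to 321 ± 103 in sham, still below Nppb. After ligation the order depended on the length taken: Nppb was at 1539 ± 29.5, and Nppa at 1035 ± 426 over all exon bases or 2687 ± 1107 over unshared bases. Which peptide transcript was the more abundant after ligation therefore cannot be told from these counts. The other 4 genes were far lower in every group, with Corin at 16.7 ± 0.773 CPM per kilobase in sham, Npr2 at 12.1 ± 0.661, Npr1 at 9.37 ± 0.936 and Npr3 at 4.67 ± 0.272. Their order was the same in the ligation and cell groups, and the ranges of these neighbours did not overlap within any group.

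The ratio of Nppa to Nppb within a library does not depend on scaling. It was 0.289, 0.143 and 0.237 in sham, 1.05, 0.696 and 0.475 after ligation, and 0.423, 0.837 and 0.378 with cells. Each ligated library was above each sham library. The mean log2 ratio was 1.72 higher after ligation than in sham and 1.26 higher with cells than in sham, each with p = 0.1 in an exact two-sided permutation test, the smallest value that 3 against 3 libraries allow. Between cells and ligation it differed by -0.46 (exact permutation p = 0.4), within the spread of the libraries. Leaving out 1 library at a time moved that difference between -0.81 and -0.17. The ratio carries the spread of Nppa described above.

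The stretches before the RNA starts of the peptide genes are shown because both genes moved the same way after ligation and both are known targets of cardiac transcription factors whose levels are given below. Sequences and starts come from RefSeq on GRCm38.p6, in which all 6 genes were found. Capitals mark matches to the motifs searched, lower case marks the rest, and all lines run 5′ to 3′ on the gene's strand. The Nppa line covers chr4:148000472-148000721 on the plus strand and ends at the base before the start. The 2 Nppb lines are windows at chr4:147985794-147985823 and chr4:147985857-147985886 on the plus strand, before the RefSeq start at 147985900. GENCODE places the start of Nppb further upstream, at 147985788.
Nppa: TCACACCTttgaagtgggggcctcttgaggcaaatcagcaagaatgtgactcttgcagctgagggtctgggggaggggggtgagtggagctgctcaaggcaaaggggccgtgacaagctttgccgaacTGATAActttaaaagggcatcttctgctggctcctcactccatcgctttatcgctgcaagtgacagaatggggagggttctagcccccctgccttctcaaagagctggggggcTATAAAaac
Nppb distal window: aGGAATGcagcTGATAAatcagAGATAAcc
Nppb proximal window: actcagccccagTATAAAaggcagaggcac

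The window searched ran from 250 bases before to 50 bases after each RefSeq start, and positions are counted from the start, with -1 the base before it. In Nppa the capitals mark a T-box factor motif at -250 to -243, a GATA factor motif at -122 to -117 and a TATAAA match at -9 to -4. That match lies nearer the annotated start than the one in Nppb, and whether it works as a TATA box from this start was not tested. In Nppb they mark the M-CAT motif, bound by TEAD factors and here on the reverse strand, at -105 to -100, GATA motifs at -95 to -90 and at -84 to -79, and the TATA box at -31 to -26. No match overlapped another. The TATA box was searched as TATAAA on the gene's strand and was present in 8.32% of 32851 promoter windows. The other motifs were searched on both strands. The T-box motif was searched as TCACACCT and was present in 1.28% of windows. The M-CAT motif was searched as CATTCC and was present in 14.7%. The GATA motif took any of 4 forms that begin with A or T, hold GATA and end in A or G, and at least 1 form was present in 29.8%. Another 3 motifs were not found in either peptide window. The AP-1 motif was searched as TGANTCA and was present in 7.81% of all windows. A FOXO motif was searched as GTAAACA and was present in 3.65%. The CArG box bound by SRF was present in 1.63%. No motif of the set was found in the windows of Corin, Npr1, Npr2 or Npr3. These matches are letters in a window and say nothing of binding in these hearts.

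Genes beside the pair were read next. Of the 5 protein-coding neighbours on each side, 9 of 10 were tested, and 2 were higher and 1 was lower after ligation, a share near the 38.2% of all genes. Their median log2 fold change was 0.01, the same as over all genes tested (0.01). Mfn2, which encodes a mitochondrial fusion protein, was 0.16 higher on the log2 scale (edgeR adjusted p = 0.00581), and 2510039O18Rik was 0.24 higher (edgeR adjusted p = 0.0342). Plod1, a collagen-modifying enzyme gene, was 0.16 lower (log2 fold change -0.16, edgeR adjusted p = 0.0434), a direction not kept with library totals. Clcn6, a chloride transporter gene beside Nppa, had a log2 fold change of 0.01, not past the threshold. Between cells and ligation edgeR and DESeq2 called 0 of the 9 neighbours, and at an unadjusted p under 0.05 edgeR had 1 higher and 1 lower.

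Corin was read at 90.8, 85.8 and 94.1 CPM in sham, at 99.7, 99.3 and 91.5 CPM after ligation, and at 84.8, 87.5 and 84.3 CPM with cells. Sham and ligation overlapped, and all 3 cell libraries were below all 3 ligation libraries. The log2 fold change was 0.10 for ligation against sham (edgeR adjusted p = 0.241). It was -0.18 for cells against ligation (95% interval -0.31 to -0.04, unadjusted p = 0.0113, edgeR adjusted p = 0.0862), which did not pass the threshold. Ranges that do not overlap were seen in 27.2% of all genes in that comparison. With library totals in place of TMM scaling, Corin passed in both comparisons, at 0.29 and -0.21.

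Npr1, the receptor of both cardiac hormones, was read at 44.5, 49.4 and 40.5 CPM in sham, at 39.4, 43.0 and 42.6 CPM after ligation, and at 35.0, 36.6 and 36.6 CPM with cells. The cell libraries were below all others, and ranges that do not overlap were seen in 27.2% of all genes between cells and ligation and in 49.8% between cells and sham. The log2 fold change of cells against sham was -0.31 (0.806-fold, 95% interval -0.49 to -0.13, edgeR adjusted p = 0.00619). The call was lost without sham replicate 2 (-0.24, edgeR adjusted p = 0.0575) and with library totals (-0.15, edgeR adjusted p = 0.169). Against ligation the cell group differed by -0.21 (unadjusted p = 0.0220, edgeR adjusted p = 0.134), and ligation against sham by -0.10 (edgeR adjusted p = 0.394). Npr1 is made by endothelial and smooth muscle cells among others, and markers of both moved in these samples. The 10 endothelial markers were all lower after ligation, beside 38.2% of all genes called in either direction. They summed to between 3048 and 3248 CPM in sham, 2106 and 2241 after ligation and 2196 and 2270.3 with cells. The 10 smooth muscle and pericyte markers summed to between 1897 and 1947 CPM in sham, 1413 and 1433 after ligation and 1392 and 1415 with cells. That list was mixed, with 2 higher and 5 lower of 9 tested after ligation, beside the same 38.2%, and Rgs5 alone went from a mean of 882 to 599 CPM. Both sums differed between sham and ligation, where Npr1 was not called, and their part in its level was not tested.

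Npr2, the C-type peptide receptor, was read at 52.9, 58.6 and 57.6 CPM in sham, at 49.9, 56.1 and 54.8 CPM after ligation, and at 56.3, 58.8 and 50.8 CPM with cells. The groups overlapped in every comparison, with log2 fold changes of -0.07 after ligation, 0.04 for the further step with cells and -0.03 from sham to cells. The widest of their 95% intervals, for ligation against sham, ran from -0.23 to 0.09, so under TMM scaling a change of 1.2-fold or more lay outside it. With library totals that fold change was 0.12 on the log2 scale, so the limit holds for TMM scaling only.

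Npr3, the clearance receptor, was read at 40.9, 45.5 and 45.2 CPM in sham, at 35.4, 37.0 and 45.1 CPM after ligation, and at 44.5, 36.5 and 48.8 CPM with cells. Ligation replicate 3 and cell replicate 2 stood apart from the other libraries of their groups, and all groups overlapped. The log2 fold change was -0.15 for ligation against sham (95% interval -0.38 to 0.07, edgeR adjusted p = 0.294) and 0.13 for cells against ligation (edgeR adjusted p = 0.524). Without ligation replicate 3 these were -0.29 (edgeR adjusted p = 0.0572) and 0.25, and the second was 0.03 without cell replicate 3. The ratio of Npr3 to Npr1 was 0.920, 0.920 and 1.12 in sham, 0.897, 0.862 and 1.06 after ligation, and 1.27, 0.996 and 1.33 with cells. Its mean log2 value was 0.35 higher with cells than after ligation (exact permutation p = 0.2) and 0.28 higher than in sham (exact permutation p = 0.2), where 0.1 is the smallest p possible.

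The signs of the small receptor differences between ligation and sham rest on the scaling. With library totals alone the median gene was 0.19 higher after ligation than in sham, and Npr1, Npr2 and Npr3 had log2 fold changes of 0.09, 0.12 and 0.04 in place of negative values. Between cells and sham the signs of Npr2 and Npr3 also turned with library totals, while that of Npr1 did not, and between cells and ligation all 3 receptors kept their sign under each of the 12 other settings that used all libraries. The peptide genes were higher after ligation under each scaling tried.

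Other genes of the pathway were read from a list of 33, of which 24 were tested. After ligation 7 were higher and 3 lower, 10 of 24 beside 38.2% of all genes, with a median log2 fold change of 0.07 against 0.01 over all genes. That share is near the background, so the values below describe single genes and not the pathway. Between cells and ligation 2 were lower and 22 did not pass, beside 9.87% of all genes called, while at an unadjusted p under 0.05 edgeR had 3 higher and 5 lower. The other ligand genes, Nppc for C-type peptide and Ostn for osteocrin, which binds Npr3, were at most 0.356 and 0.284 CPM in any library, under the floor of 3 counts, and were not tested. Among peptide-processing and degrading enzymes, Dpp4, a peptidase that trims B-type peptide, was at 5.52, 9.23 and 6.03 CPM in sham and 14.1, 16.8 and 14.5 CPM after ligation (log2 fold change 1.13, edgeR adjusted p = 7.94e-05). With cells it was at 12.6, 10.1 and 9.36 CPM, below each ligation library, but not past the threshold (log2 fold change -0.50, edgeR adjusted p = 0.0750). Ide, an insulin- and peptide-degrading enzyme, rose by 0.33 on the log2 scale after ligation. Furin, which cuts the Nppb precursor, Pcsk6, which activates corin, and Mme, encoding neprilysin, had log2 fold changes of 0.18, -0.16 and -0.08, none past the threshold.

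Around cyclic GMP, both nitric oxide synthase genes tested fell after ligation: Nos3, the endothelial form, from 34.4 ± 3.08 to 23.7 ± 3.06 CPM (SD, n = 3, log2 fold change -0.52), and Nos2, the inducible form, from 19.2 ± 1.36 to 9.69 ± 2.13 CPM (log2 fold change -0.95). Of the soluble guanylyl cyclase subunits Gucy1a1 rose by 0.39 and Gucy1b1 fell by 0.24, the latter with an edgeR adjusted p of 0.0499 at the edge of the threshold. Prkg1, the cyclic GMP-dependent kinase, was at 3.20, 5.27 and 4.60 CPM in sham, 9.16, 9.69 and 10.5 CPM after ligation and 12.2, 8.74 and 12.8 CPM with cells. It was higher after ligation by 1.16 on the log2 scale (edgeR adjusted p = 0.000268). Of 8 phosphodiesterase genes tested, which encode enzymes that break down cyclic nucleotides, Pde1a, Pde1c and Pde3b were higher after ligation, by 0.46, 0.41 and 0.89 on the log2 scale. Pde5a, a cyclic GMP-specific form, had a log2 fold change of 0.06. Pde9a, another such form, had means of 10.1 CPM in sham, 8.32 after ligation and 8.19 with cells, and was not called after ligation. Rgs2, a regulator of G protein signalling that the kinase acts on, was the pathway gene with the lowest edgeR adjusted p between cells and ligation (log2 fold change -0.43, 0.0154). Vasp, a kinase substrate, was lower by 0.24 (log2 fold change -0.24, edgeR adjusted p = 0.0496).

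Of 18 transcription factor genes and co-factors known to act on Nppa and Nppb, 12 were higher and 1 lower after ligation, beside 38.2% of all genes called in either direction, with a median log2 fold change of 0.31 against 0.01 over all genes. DESeq2 called 9 higher and 1 lower. The list was chosen with earlier results of these data known, so its counts beside the background are no independent support. Tbx20, a cardiac T-box factor, was at 98.6, 87.8 and 100.2 CPM in sham, 145, 137 and 139.9 CPM after ligation and 166, 170.1 and 178 CPM with cells, so that the 3 groups did not overlap. Gata4, a GATA factor of heart muscle, was at 87.5 ± 6.90 CPM (SD, n = 3) in sham, 103 ± 2.11 after ligation and 126 ± 3.20 with cells, with each step past the threshold (edgeR adjusted p = 0.00702 and 0.00452). Tbx3, a T-box repressor of the working-myocardium programme, was the gene that was lower: 48.2, 49.6 and 50.8 CPM in sham against 17.7, 20.7 and 22 CPM after ligation (log2 fold change -1.28, edgeR adjusted p = 9.87e-10). With cells it was at 27.7, 27.6 and 30.7 CPM, above each ligation library (log2 fold change 0.49, edgeR adjusted p = 0.00230). Between cells and ligation 4 of the 18 were higher and 1 was lower, beside 9.87% of all genes. The lower one was Klf13, a Krüppel-like factor, which was 0.37 higher after ligation than in sham and 0.47 lower with cells than after ligation (log2 fold change -0.47, edgeR adjusted p = 2.97e-05).

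Cardiomyocyte genes that respond to load and injury gave the setting of the peptides. Of 10 such genes, 8 were higher and 2 lower after ligation, beside 38.2% of all genes called, with a median log2 fold change of 0.70 against 0.01 over all genes. With cells 6 were higher than after ligation, beside 9.87% of all genes, with a median of 0.15 against 0.002. This list too was chosen with earlier results of these data known, so its counts are no independent support. Ankrd1, encoding a stretch-responsive titin-binding protein, was at 1500.2 ± 82.7 CPM (SD, n = 3) in sham, 5617 ± 153 after ligation and 6646 ± 95.9 with cells. Its steps, 1.90 and 0.24 on the log2 scale (edgeR adjusted p = 5.01e-19 and 6.89e-05), compare with 1.33 and 0.28 for Nppb. Acta1, the skeletal actin gene of the fetal programme, had steps of 0.41 and 0.55. Myh7, the slow myosin heavy chain gene, was 1.22 higher after ligation, with a further 0.12 with cells that did not pass (edgeR adjusted p = 0.113). Xirp2 and Synpo2l, which encode Z-disc and actin-binding proteins, were 1.61 and 1.59 higher after ligation. Cryab, a small heat shock protein gene, and Csrp3, encoding a Z-disc LIM protein, were lower after ligation, by 0.53 and 0.11 (log2 fold changes -0.53 and -0.11), the latter not in the same direction with library totals.

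**Figure D4:**
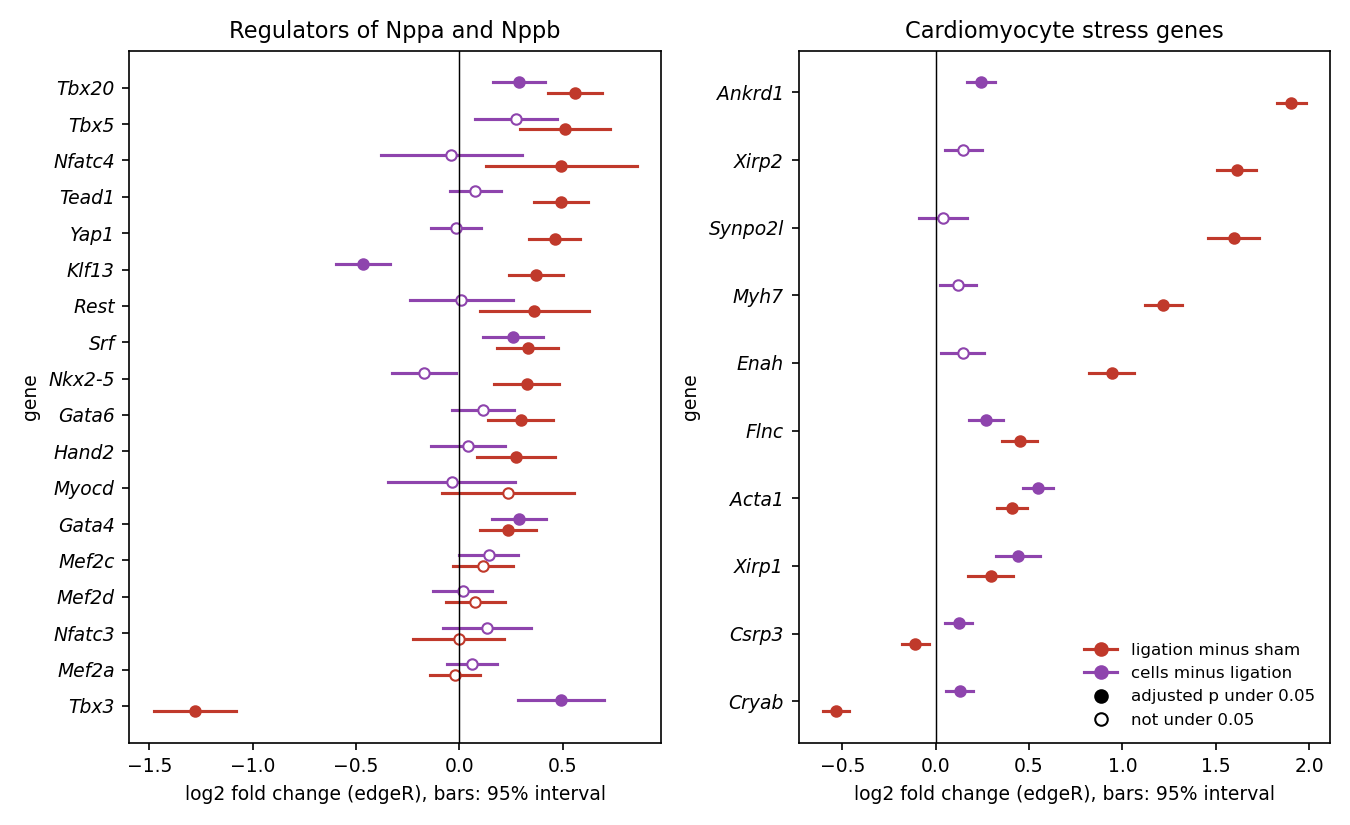
Log2 fold changes with 95% intervals (edgeR) of 18 regulators of Nppa and Nppb (left) and 10 cardiomyocyte stress genes (right) for ligation minus sham and cells minus ligation, filled where the adjusted p was under 0.05. Most genes lie right of 0 after ligation, with Tbx3 at -1.28, and the step from ligation to cells is smaller for most of them.

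Atrial muscle carries far more Nppa than ventricular muscle, so atrial markers were read beside the peptides. The list was mixed: of the 8 tested, 2 were higher and 4 lower after ligation, beside 38.2% of all genes called. Myl7, the atrial regulatory light chain gene, was at 154, 155 and 164 CPM in sham, 102, 106 and 87.9 CPM after ligation and 286, 297 and 315 CPM with cells. Myl4, the atrial essential light chain gene, had means of 198, 144 and 498 CPM in the same order, and Sln, encoding sarcolipin, 66.1, 55.4 and 193 CPM. All 3 were lower after ligation, when Nppa and Nppb were higher, and over 3-fold higher with cells than after ligation (log2 fold changes 1.60, 1.79 and 1.80, edgeR adjusted p at most 1.13e-12). Dkk3 was higher at each step, by 1.06 and 0.62, as was Nppb, and Bmp10 was at most 0.165 CPM in sham, 2.98 to 4.78 CPM after ligation and 0.567 to 1.11 CPM with cells. The 9 atrial markers, none at 0 in all libraries, summed to between 528 and 582 CPM in sham, 437 and 475 after ligation and 1208 and 1268 with cells. Between cells and ligation 6 of the 8 tested were higher and 1 was lower, beside 9.87% of all genes called. The 1.21-fold difference of Nppb between cells and ligation came with this larger difference in atrial markers, and its part in Nppb was not tested. For Nppa no difference was detected there in the fit with the filter on low counts, within the wide interval given above. Without that filter Nppa was called (edgeR adjusted p = 0.00700).

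**Figure D5:**
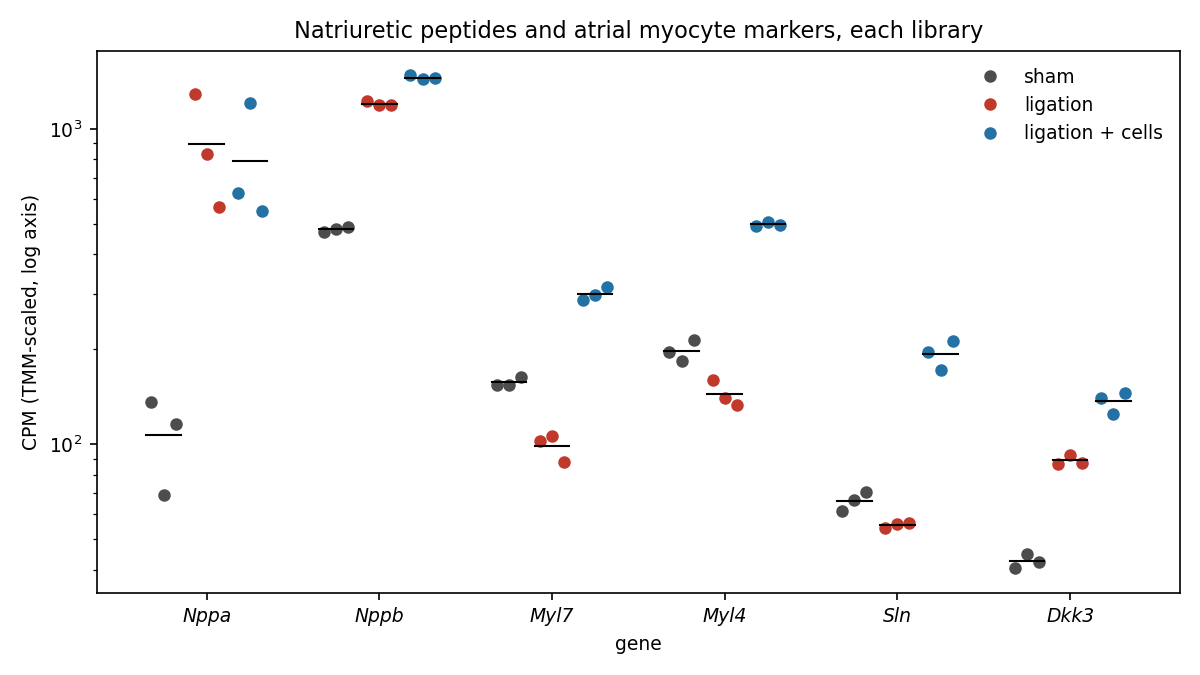
CPM of Nppa, Nppb and 4 atrial markers in each library on a log axis, with bars at the group means. The peptide genes are higher in both ligated groups than in sham, while Myl7, Myl4 and Sln are lowest after ligation and highest with cells, with no overlap between ligation and cells.

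Other cell types also moved with the groups. The counts of markers below stand beside 38.2% of all genes called after ligation and 9.87% between cells and ligation. The 7 leukocyte markers were all higher after ligation than in sham and all lower with cells than after ligation, summing to between 382 and 417 CPM in sham, 799.5 and 827 after ligation and 330 and 344 with cells. The 6 mesothelial markers summed to between 33.0 and 44.3 CPM, 228 and 269.9, and 187 and 190.4 in the same order. The 10 fibroblast markers, of which 6 were higher and 2 lower after ligation (Gsn, 1 of the latter, not with library totals), summed to between 4286 and 4322 CPM in sham, 5369 and 5520.1 after ligation and 5328 and 5478 with cells. The 9 conduction system markers summed to between 78.3 and 82.5 CPM, 92.8 and 105, and 109 and 119.6 in that order of groups. Of the 8 tested, 2 were higher and 1 lower after ligation: Gja5 went from a mean of 17.1 to 29.5 CPM, while Hcn4 went from 7.18 to 3.57 CPM (log2 fold change -1.03, edgeR adjusted p = 0.00320). Of 5 endocardial markers tested, Plvap rose by 1.23 after ligation, while Cgnl1 and Cytl1 were lower (log2 fold changes -0.34 and -0.31, edgeR adjusted p = 0.00138 and 0.0144), and the list's median was -0.22. The endocardial list summed to between 204 and 212 CPM in sham, 223 and 248 after ligation and 213 and 223 with cells. The part of these shifts in the levels of the 6 genes was not tested.

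The genes whose pattern over the 9 libraries was nearest to each of the 6 were taken from 11140 genes with a mean of at least 5 CPM over the 9 libraries. Nearness was the root mean square difference of centred log2 levels. For Nppb they were Rcan1, Fhl1 and Nupr1, at 0.08, 0.10 and 0.10. Rcan1, at 105, 101 and 99.1 CPM in sham, 228, 231 and 229 CPM after ligation and 284, 275 and 294 CPM with cells, kept the same 3 separate steps. For Nppa the nearest were Cidec, Gpnmb and Ccn5, at 0.43, 0.44 and 0.45, so that no gene followed Nppa closely. Cidec and Gpnmb were under 5 CPM in each sham library and passed the limit through the ligated groups. For Corin they were Camk2n1, Anapc16 and Pdia3, for Npr1 Zfc3h1, Adcy6 and Gas7, for Npr2 Pmm2, Clybl and Bclaf1, and for Npr3 Fnip2, Nt5dc3 and N6amt1. The last 4 sets differed from their gene by 0.04 to 0.08, in genes that themselves varied little.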

How the data were processed

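Each deposited file holds the unnormalized count of reads per gene for 1 library, and the build is mm10 per the submitters' processing notes. The labels' protocols name TRIzol for the RNA and the NEBNext Ultra RNA kit for the libraries. The aligner, counter and strand setting are not given in the sources used here. The closing lines of each file give reads outside genes (4.14% to 4.91%) and ambiguous reads, which were kept out of library sizes and tests.

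Symbols came from GENCODE vM21 (53274 of 53465 identifiers). Genes were kept with filterByExpr, scaled with TMM and fitted in 1 model over 9 libraries with 6 residual degrees of freedom (edgeR 4.0.16, R 4.3.3). P-values are two-sided and adjusted over 13825 genes by Benjamini-Hochberg, with a threshold of 0.05. Fold changes carry SEs and 95% intervals from the quasi-likelihood F statistic. CPM use TMM factors, errors are SDs over 3 libraries, and 3 counts, the floor, correspond to 0.375 to 0.639 CPM. Intervals and p-values from edgeR rest on the spread between libraries, drawn by the fit towards that of other genes, and floors cover counting error only. For Nppa, whose libraries differed more than those of most genes, the interval is narrower than its own spread alone would give.

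The members and lists were chosen with earlier results of these data known. The text names the 6 members, any pathway gene, atrial, endocardial and cardiomyocyte markers, neighbours, the 3 nearest genes per member, and from each other list up to 4 genes with the largest called differences and separate ranges per comparison. Cryab, Csrp3 and Gsn fall outside that rule and were chosen after their values were seen. Gene symbols of the lists were matched in 138 of 138 cases. Other settings were RLE factors or library totals, a looser and a stricter filter, DESeq2 1.42.0, limma-voom 3.58.1, fits of only the groups compared, a replicate block, leaving out mitochondrial genes, and leaving out each library. Sums of libraries with a shared stem in their header, scaling without Nppa and Nppb, and the short-transcript covariate were chosen after seeing the data. The fit was tested on simulated counts of 13656 genes: of 200 genes changed by 1 on the log2 scale between ligation and sham, 153 were called with the right sign, with 4 false calls. Figures were drawn with matplotlib.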

Additional observations from a re-analysis of the deposited data

How the results depend on the processing

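Nppa and Nppb kept their direction and their call in both comparisons with sham under all 12 other settings and without each library in turn, and Nppb kept its call between cells and ligation (log2 fold change 0.25 to 0.28 over the 12 settings). With library totals alone, which move the median gene by 0.19, the small differences changed: for ligation minus sham Npr1 was 0.091, Npr2 0.12, Npr3 0.038, Corin 0.29 (now past the threshold), Csrp3 0.078, Ttn 0.068, Gsn 0.096 and Plod1 0.033. With the same totals, for cells minus sham, Npr1 was -0.15 (no longer past the threshold), Npr2 0.13, Npr3 0.14 and Corin 0.081, and for cells minus ligation Corin was -0.21 (now past it), so that 2 of the 6 genes were called. With no filter on low counts Nppa was called between cells and ligation at -0.17 (edgeR adjusted p = 0.00700, against 0.00700 to 0.916 over all 12 settings), also giving 2 called genes, and the cause was not tested.

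Leaving out 1 library at a time gave 2.71 to 3.29 for Nppa, 1.31 to 1.34 for Nppb and -0.29 to -0.091 for Npr3 between ligation and sham. Between cells and ligation it gave -0.60 to 0.19 for Nppa, with 0.19 without ligation replicate 1 and 0.035 without cell replicate 3, 0.26 to 0.29 for Nppb, 0.033 to 0.25 for Npr3, and -0.0072 to 0.096 for Npr2, with -0.0044 without ligation replicate 1 and -0.0072 without cell replicate 2. Between cells and sham it gave -0.38 to -0.24 for Npr1, not past the threshold without sham replicate 2, -0.073 to 0.029 for Npr2, with 0.029 without cell replicate 3, and -0.12 to 0.089 for Npr3, with 0.00155 without sham replicate 2 and 0.089 without cell replicate 2. The log2 ratio of Npr3 to Npr1 between ligation and sham ran from -0.16 to 0.024, the latter without sham replicate 3.

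Samples of the same number did not deviate together (mean correlations 0.03, -0.05 and -0.01 over 9414 genes), so the numbers only name libraries. With the replicate number as a block no call on the 6 genes changed: Nppa was 2.99 and Nppb 1.33 between ligation and sham, Nppb 0.28 between cells and ligation, and Npr1 -0.31 between cells and sham. Nppc and Ostn were under the floor of 3 counts in each library, so no difference in them was detectable at this depth.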
